A study of Ictidomys tridecemlineatus with 31 samples.

Results

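The concentrating capacity of the kidney medulla was examined through 8 genes in kidneys of the 13-lined ground squirrel (13-LGS), a seasonal hibernator. They were the urea transporters Slc14a1 and Slc14a2, the osmolyte carriers Slc5a3, Slc6a12 and Slc6a6, the sorbitol-forming enzyme Akr1b1, the hypertonicity transcription factor Nfat5 and the thin limb transporter Slc4a11. Rows were found by gene symbol, with letter case ignored, and all 8 were among the 12863 genes of the table. The genes were chosen by their known roles and by measured values, the high levels of some of them in the kidneys K113, K137 and K130, so the departures of those kidneys from their states are given as a description, with no test. Fits that hold any of them draw on values behind the choice, and results that rest on K130, which is among the 29 animals tested, are also given without it.

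The table held rlog values, normalized counts put on a log2 scale and corrected for batch by the authors, from 31 untreated animals, each sampled once. Homeothermic animals were taken in August while fattening (summer active, SA, 5 animals) or in the hibernaculum after their last torpor bout (spring dark, SpD, 5 animals). Hibernating animals were entering torpor (Ent, 5 animals), early in arousal while still cold (EAr, 5 animals), later in the same rewarming (LAr, 6 animals) or rewarmed between torpor bouts (IBA, 5 animals). Both sexes were present in every state, ages were not in the labels, and each library came from a small frozen piece of a kidney perfused to remove blood. Libraries were made in 2 experiments with different kits, of 9 and 22 animals, and SA, EAr and LAr were only in experiment 2. No read counts came with these values, so their depth is unknown.

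Urea adds to the hypertonicity of the kidney medulla, and small organic osmolytes protect its cells from it. Slc14a2 encodes the UT-A transporters of the inner medullary collecting duct and thin descending limb, and Slc14a1 encodes UT-B of the descending vasa recta and red blood cells, so that urea recycles within the medulla. Medullary cells take up myo-inositol through Slc5a3, betaine through Slc6a12 and taurine through Slc6a6, make sorbitol with Akr1b1, and raise several of these genes through Nfat5, also called TonEBP. By symbol, 6 of the 8 genes matched the RefSeq genes of assembly mIctTri1.hap1, where Slc14a1 and Slc14a2 are neighbours with 0 protein-coding genes starting between them. The authors used another assembly, and positions are left out for that reason.

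The kidneys K113 (LAr), K137 (SA) and K130 (SpD) stood apart in cell type markers. Of 12 listed medullary markers of collecting duct principal cells and thin limbs, 10 were in the table, and their mean ranked K137 first at 12.96, K113 next at 12.6 and K130 after it at 12.5 of all 31 animals. The next animals were K84 (SpD) and K104 (IBA), both at 12.1, and the lowest was K171 (IBA) at 11.1. Above every other animal of the same state were 7 of the 10 markers in K113, 8 in K137 and 7 in K130. Aqp2, the vasopressin-regulated water channel, was 1.51, 1.93 and 1.38 above the mean of the other animals of the state in K113, K137 and K130. The label of medulla-rich kidneys did not hold for each marker, since Hsd11b2, the enzyme that inactivates glucocorticoids in the distal nephron, was lower than that mean in all 3 (−0.60, −0.71 and −0.52). The 8 proximal tubule markers were below that mean in all 3 kidneys, with median departures of −0.98, −1.13 and −1.62. The authors left K113 and K137 out of their test, and the tests below use the other 29 animals unless all 31, or the 28 without K130 as well, are named. All markers were well above the lowest value of the table (4.11).

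Between animals of the same state, most of these genes were among the most variable in the kidney. With state, sex and experiment fitted, the residual standard deviation was 1.62 for Slc14a2 and 1.13 for Slc14a1, against a median of 0.155 over all genes. These values were at percentile 99.9 and 99.7 of the table, with Slc5a3 and Slc4a11 at 98.7 each. In the 28 animals Slc14a2 and Slc14a1 were still at percentiles 99.9 and 99.6. Slc6a6 (percentile 76.6), Nfat5 (79.1) and Akr1b1 (88.3) varied less. Across states, 4 of the 8 genes passed the test (adjusted p, here q, under 0.05, Benjamini-Hochberg over all genes, limma F test), when 46.1% of all genes did. The 4 were Slc5a3 (q = 0.0109), Slc4a11 (q = 0.0144), Slc14a2 (q = 0.0335) and Slc14a1 (q = 0.0344). In bulk tissue, fewer cells of a type and less RNA per cell cannot be told apart.

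**Figure D1:**
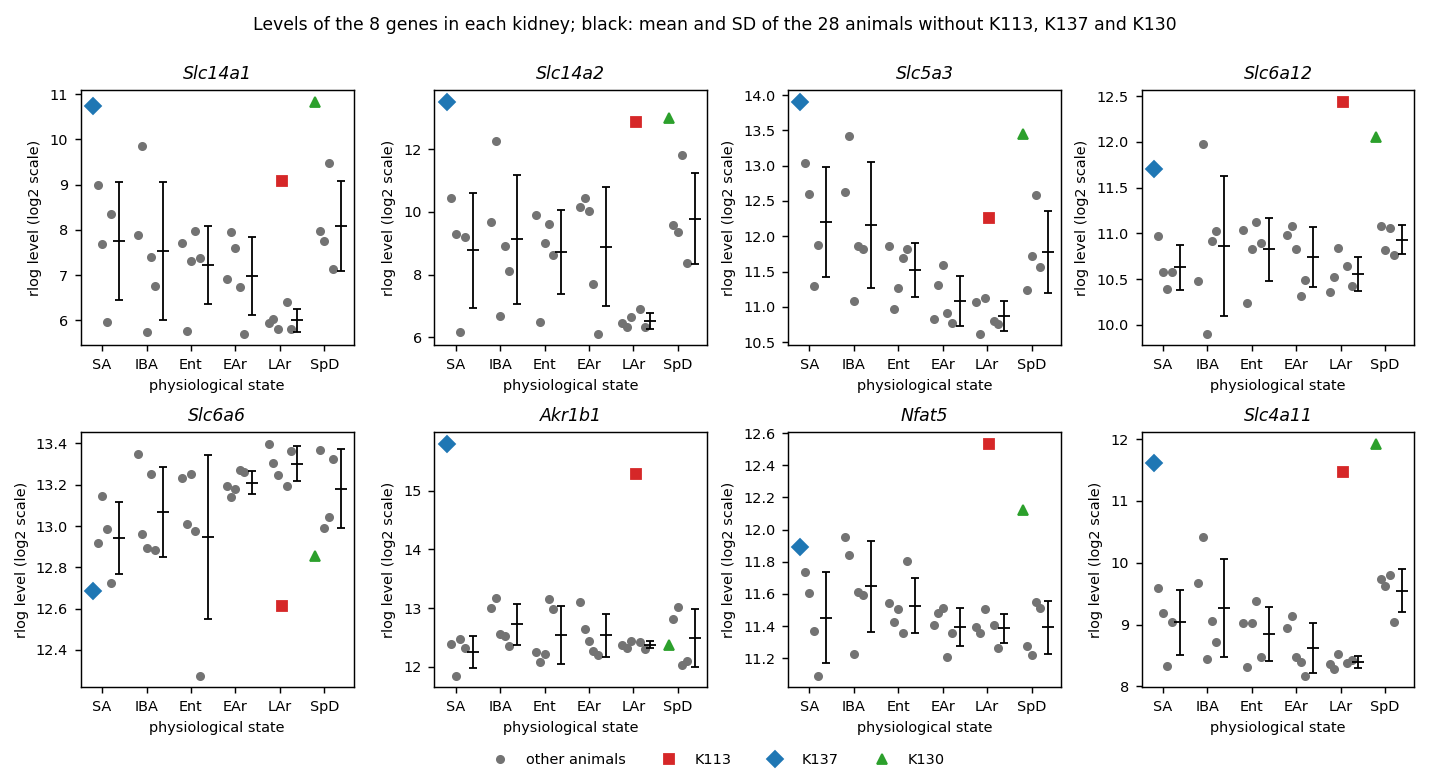
Each panel plots the rlog level (log2 scale) of a gene in every kidney by state; black bars are the mean and SD of the 28 animals without K113, K137 and K130, which have coloured symbols. The 5 grey LAr animals lie close together, and for Slc14a2 they span only 6.31 to 6.91, under the rlog of 7 of the authors' filter.

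Slc14a2, the collecting duct urea transporter, had the widest span of the 8 genes, from 6.11 to 13.51, or 7.41 on the log2 scale. In SA its levels were 6.17 in K140, 9.19 in K141, 9.29 in K139, 10.43 in K138 and 13.51 in K137. In IBA they were 6.67 in K171, 8.11 in K7, 8.92 in K4, 9.67 in K1 and 12.24 in K104. Both states thus ran from near the bottom to near the top of the range. Ent kidneys held 6.49 (K167), 8.62 (K8), 9.02 (K2), 9.61 (K5) and 9.90 (K155). EAr kidneys held 6.11 (K165), 7.68 (K158), 10.03 (K157), 10.16 (K154) and 10.44 (K156). Each of these 4 states had a kidney at or below the LAr levels, which were 6.31, 6.32, 6.44, 6.64 and 6.91 in the 5 animals other than K113 and 12.87 in K113. SpD had no such kidney, with 8.38 in K9, 9.36 in K6, 9.58 in K3, 11.82 in K84 and 12.99 in K130. The group means of IBA and LAr were 9.12 ± 2.07 (SD, n = 5) and 6.52 ± 0.25 (n = 5), a difference of 2.60, and the ranges of the groups overlapped. The fit with a term for experiment gave a difference of 3.13 (SE 1.07, q = 0.0443), and without that term Slc14a2 missed the threshold at 2.60 (q = 0.0721).

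Slc14a1, the vasa recta and red cell urea transporter, was high and low in much the same kidneys. Its SA levels were 5.97 (K140), 7.68 (K139), 8.34 (K141), 8.996 (K138) and 10.74 (K137), and its IBA levels were 5.75 (K171), 6.76 (K7), 7.39 (K4), 7.88 (K1) and 9.86 (K104). Ent ran through 5.77 (K167), 7.30 (K2), 7.37 (K8), 7.72 (K155) and 7.98 (K5), and EAr through 5.70 (K165), 6.73 (K158), 6.92 (K154), 7.59 (K157) and 7.95 (K156). The kidneys at the bottom of SA, IBA, Ent and EAr were K140, K171, K167 and K165 for both urea transporters. LAr levels were 5.80, 5.81, 5.93, 6.02 and 6.41 and, in K113, 9.09, and SpD levels were 7.13 (K9), 7.74 (K6), 7.98 (K3), 9.48 (K84) and 10.83 (K130). Of the 25 kidneys outside LAr, 4 lay at or below the highest of the 5 LAr animals for Slc14a1, and the same 4 did so for Slc14a2. All these levels lay under the rlog of 7 of the authors' filter, and the mean of Slc14a1 was at percentile 10.1 of the table. Differences are shrunken at such levels, and whether that made the 5 LAr animals so alike was not tested. Slc14a1 was lower in the hibernating states than in SA and SpD by 1.26 on average (difference −1.26, SE 0.43, q = 0.0254). In the 28 animals, without K130, this difference of Slc14a1 was −0.94 (SE 0.40, q = 0.0710) and missed the threshold. Its difference of 1.95 between IBA and LAr missed the threshold (SE 0.75, q = 0.0704). Over the 28 animals the levels of the urea transporters had a Pearson's r of 0.946 and a Spearman's rho of 0.881, given as a description over animals that share state, library kit and tissue makeup.

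Slc5a3, the sodium-coupled myo-inositol carrier, had the lowest q of the 8 genes across states. SA levels were 11.30 (K140), 11.87 (K141), 12.60 (K139), 13.04 (K138) and 13.90 (K137), and IBA levels were 11.08 (K171), 11.82 (K7), 11.86 (K4), 12.63 (K1) and 13.42 (K104). Ent levels were 10.97, 11.27, 11.69, 11.82 and 11.86, with K167 lowest and K155 highest. In EAr they were 10.78 (K165), 10.83 (K154), 10.91 (K158), 11.31 (K156) and 11.60 (K157). The state means thus fell from SA (12.20 ± 0.77, n = 4), IBA (12.16 ± 0.89, n = 5) and SpD (12.11 ± 0.90, n = 5) through Ent (11.52 ± 0.38, n = 5) and EAr (11.09 ± 0.36, n = 5) to LAr (10.88 ± 0.21, n = 5). LAr levels were 10.62 (K111), 10.76 (K116), 10.80 (K115), 11.07 (K109) and 11.12 (K112), with 12.26 in K113, and SpD levels were 11.23 (K3), 11.56 (K9), 11.72 (K6), 12.59 (K84) and 13.45 (K130). Slc5a3 was 1.58 higher in IBA than in LAr (95% interval 0.71 to 2.45, q = 0.0128), and 1.29 higher without the term for experiment (q = 0.0306). It was lower on average in the hibernating states than in the homeothermic states (difference −0.74, SE 0.24, q = 0.0195), although its IBA mean was near those of SA and SpD. In the 28 animals, without K130, this difference of Slc5a3 was −0.57 (SE 0.23, q = 0.0543) and missed the threshold.

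Slc6a12, the betaine carrier, showed no call in any comparison (q = 0.432 across states). Its state means lay between 10.56 ± 0.19 in LAr (n = 5) and 11.16 ± 0.52 in SpD (n = 5), and single kidneys between 9.90 (K171) and 12.44 (K113). Slc6a6, the taurine carrier, was the most even of the 8 in all 31 animals, from 12.28 in K8 (Ent) to 13.40 in K109 (LAr). In the 28 animals Slc6a6 varied more than Nfat5 (SD 0.24 against 0.20). Its order of states was the opposite of Slc5a3 at the extremes, with the highest mean in LAr (13.30 ± 0.08, n = 5) and the lowest in SA (12.94 ± 0.17, n = 4). Slc6a6 did not pass across states (q = 0.170), and K8 decided that call, since q was 0.0283 without it.

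Akr1b1, aldose reductase, which reduces glucose to sorbitol, did not pass across states in the 29 animals (q = 0.497). K113 and K137, which are not in that fit, were far above every other kidney. SA levels were 11.85 (K139), 12.31 (K141), 12.39 (K138), 12.46 (K140) and 15.80 (K137). LAr levels were 12.31 (K116), 12.32 (K111), 12.38 (K109), 12.42 (K115), 12.45 (K112) and 15.29 (K113). The IBA, Ent and EAr ranges were 12.36 to 13.16, 12.08 to 13.16 and 12.21 to 13.11. K130 did not join the pair at the top, with 12.38 beside SpD levels of 12.04 (K84), 12.09 (K9), 12.82 (K3) and 13.01 (K6). Nfat5, the transcription factor that acts on several osmolyte genes, had state means between 11.39 ± 0.09 in LAr (n = 5) and 11.65 ± 0.28 in IBA (n = 5), and q was 0.505 across states. Its highest kidneys were K113 (12.53) and K130 (12.12).

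Slc4a11, a solute-linked transporter found in the thin descending limb, was highest in SpD. Its SpD levels were 9.04 (K9), 9.63 (K6), 9.73 (K3), 9.81 (K84) and 11.93 (K130), and its SA levels were 8.33 (K140), 9.04 (K141), 9.18 (K139), 9.60 (K138) and 11.61 (K137). IBA held 8.45 (K171), 8.73 (K7), 9.07 (K4), 9.67 (K1) and 10.42 (K104), and the lowest and highest Ent levels were 8.32 (K167) and 9.39 (K5). EAr ran from 8.17 (K165) to 9.13 (K156). LAr was the lowest state, with 8.28, 8.36, 8.37, 8.43 and 8.53 in 5 animals, whereas K113 held 11.47. Slc4a11 was lower on average in the hibernating than in the homeothermic states (difference −0.75, SE 0.24, q = 0.0207). K130 weighed on this difference, which was −0.48 (SE 0.18, q = 0.0431) in the 28 animals. The IBA mean (9.27 ± 0.79, n = 5) was not below that of SA (9.04 ± 0.53, n = 4).

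The order of the states was loose for all 8 genes. Of the 40 pairs of neighbours in the order of state means, 5 per gene, the gap was smaller than the larger of the 2 standard deviations in 36, and the ranges overlapped in all 40. The 4 wider gaps were Ent over LAr for Slc14a2 (2.20), EAr over LAr for Slc14a1 (0.98), Ent over EAr for Slc5a3 (0.44) and LAr over EAr for Slc6a6 (0.09).

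The departures of the 3 kidneys from the other animals of their states differed by gene and by kidney. For Slc14a2 the departures were 6.34 in K113, 4.74 in K137 and 3.21 in K130, at rank 1, 2 and 1 among all genes of those kidneys. Slc14a1 departed by 3.09, 2.99 and 2.75, and Slc4a11 by 3.08, 2.57 and 2.38. Both genes were thus raised by like amounts in the 3 kidneys. Akr1b1 departed by 2.91 in K113 and 3.55 in K137 but by −0.11 in K130. Slc5a3 departed by 1.39, 1.70 and 1.67, Slc6a12 by 1.88, 1.07 and 1.12, and Nfat5 by 1.15, 0.44 and 0.73. Slc6a6 went the other way in all 3, by −0.69, −0.26 and −0.32. K104, with an Slc14a2 level 3.91 above the mean of the other 4 IBA animals, and K84, 2.71 above the 3 SpD animals left without K130, were the next highest for that gene.

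**Figure D2:**
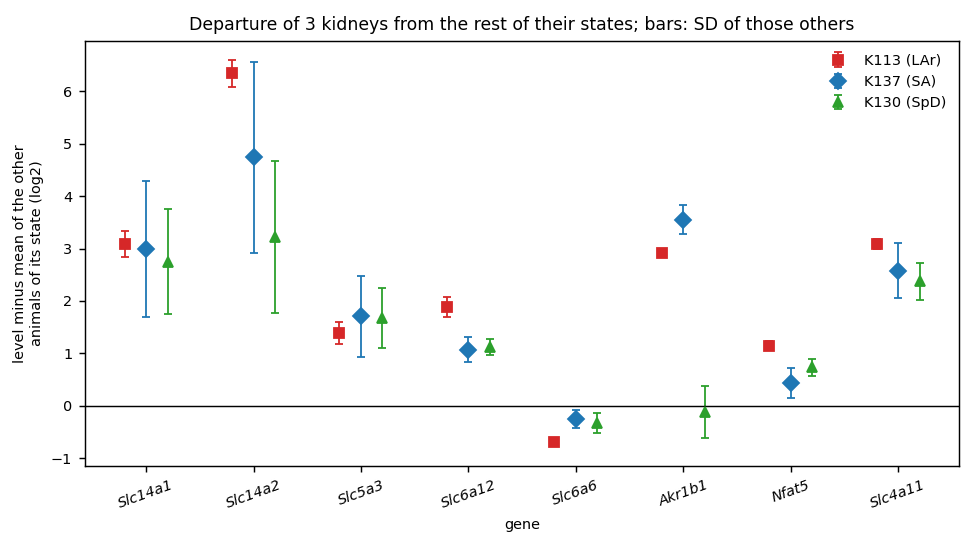
The y axis is the level of K113, K137 or K130 minus the mean of the other animals of the same state (log2), by gene; bars are the SD of those other animals. Slc14a2 in K113 stands highest at 6.34, Akr1b1 in K130 lies at −0.11, and Slc6a6 is below 0 in all 3.

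Pairs of states were compared in the order of the year and of a torpor bout. IBA over LAr was the only pair of 7 with calls, 2 of 8 genes (Slc14a2 and Slc5a3), when 18% of all genes passed. The groups overlapped for all 8 genes, and 13.7% of all genes had groups that did not. No gene of the 8 passed by limma in SA against SpD (10.5% of all genes), IBA against SA (22.9%), Ent against IBA (13.1%), EAr against Ent (0.257%), LAr against EAr (0.575%) or SpD against IBA (11.9%). At an unadjusted p under 0.05 the count was 1 in SA against SpD (29.1% of all genes) and 1 in LAr against EAr (8.33%). It was 0 in IBA against SA (36.3%), Ent against IBA (29.4%), EAr against Ent (7.16%) and SpD against IBA (26.6%). The pooled contrast of the 4 hibernating states with SA and SpD called 3 of 8 genes (Slc14a1, Slc5a3 and Slc4a11), all lower in hibernation, when 33.4% of all genes passed and 16.8% were lower. K130, whose high levels entered the choice of the genes, is in the SpD arm of this contrast, and without it 1 of 8 was called. The pooled contrast also averages over states that differ. Fitted values were higher in IBA than in SA for 8 of 8 genes in 29 animals (median difference 0.25, no calls). The count was 7 of 8 in the 28 animals and 3 of 8 in 31. The plain group means of the 29 animals were lower in IBA for Slc14a1 (7.53 against 7.75) and Slc5a3 (12.16 against 12.20). For the other genes they were higher in IBA. The fitted values also hold terms for sex and experiment, and SA was only in experiment 2. At the stricter threshold of 0.001, 0 of 8 genes passed across states (9.34% of all genes), between IBA and LAr (1.43%) or for hibernation (9.73%). The comparisons share animals, so their calls do not add to each other. The 2 and 3 of 8 genes called in either direction were near the shares of all genes. With only 8 genes, the 0 calls in the other 6 pairs are not read as a departure from theirs. The median difference of the 8 genes was 0.77 between IBA and LAr, against −0.01 over all genes, and −0.45 for hibernation, against 0.00. Without K130 the hibernation median was −0.25, and with all 31 animals the IBA and LAr median was 0.38.

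**Figure D3:**
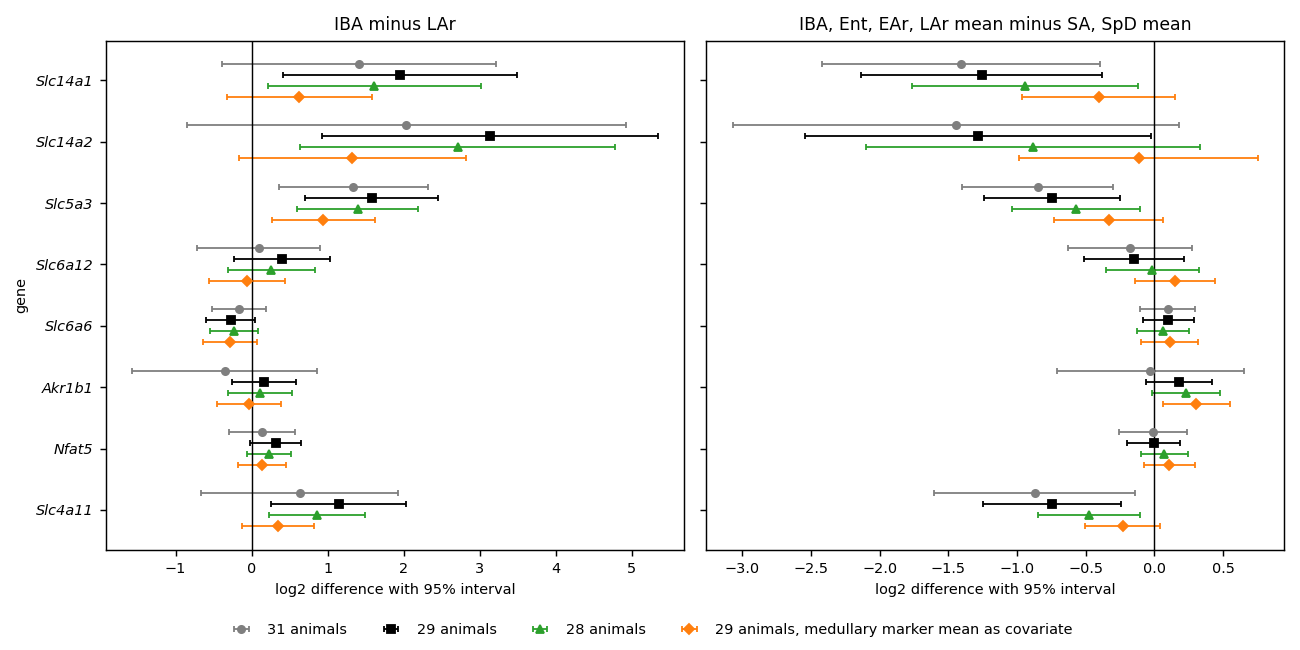
Log2 differences with 95% intervals for IBA minus LAr (left) and for the mean of the hibernating states minus that of SA and SpD (right), by gene, in 31, 29 and 28 animals and with the medullary marker mean as a covariate. Slc14a2 moves from 3.13 in 29 animals to 1.33 with the covariate, and Slc6a6 stays near 0.

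The calls depended on which kidneys were in the fit. With K113 and K137 back in, 1 of 8 genes passed across states (Slc5a3, q = 0.0265), when 32.8% of all genes did. Between IBA and LAr 0 passed, when 8.43% did, with 1 at an unadjusted p under 0.05 (24.3% of all genes). Slc14a1 (difference −1.41, q = 0.0332) and Slc5a3 (−0.85, q = 0.0186) were still called lower in hibernation in all 31 animals (2 of 8, when 28.8% of all genes passed). Without K130, Slc5a3 was again the only gene across states (q = 0.0152), when 42.2% of all genes passed. It was also the only one of 8 between IBA and LAr (1.39, q = 0.0171), when 16% passed, and Slc14a2 then had a difference of 2.71 with q = 0.0676. IBA and LAr hold the same animals in both fits, so the estimate could move only through the terms for sex and experiment, which K130 helps set. In the 28 animals Slc4a11 alone was called lower in hibernation (1 of 8), when 32.9% passed. Slc5a3 thus passed across states in 29, 31 and 28 animals.

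K104 and K171, the highest and lowest IBA kidneys for both urea transporters, Slc5a3, Slc6a12 and Slc4a11, also decided the IBA and LAr contrast. Without K104, 0 of 8 genes passed by limma (10.9% of all genes) and 1 had an unadjusted p under 0.05, with Slc5a3 at 1.18 (q = 0.0890) and Slc14a2 at 2.16 (q = 0.224). Without K171, 6 of 8 passed (25.2% of all genes), including Slc14a1 at 2.96 (q = 0.00511) and Slc4a11 at 1.64 (q = 0.00899), and without K167 (Ent), 4 of 8 (18.6%). For hibernation, leaving out K138 (SA) left 0 of 8 calls (28.5% of all genes), with 3 at an unadjusted p under 0.05, and leaving out K130 left 1. Within experiment 2, which has 2 IBA animals, the IBA and LAr difference was 2.50 for Slc14a2 (q = 0.287) and 1.35 for Slc5a3 (q = 0.125), and Slc6a6 alone of the 8 passed (−0.39, q = 0.0272), when 7.49% of all genes did.

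Medullary and proximal tubule markers were read beside these comparisons. The mean of the 10 medullary markers was 11.60 ± 0.44 in IBA (11.09 to 12.09, n = 5) and 11.23 ± 0.09 in LAr (11.12 to 11.33, n = 5), so the ranges overlapped. Fitted values were higher in IBA for 8 of the 10 markers, and 2 of 10 were called in either direction, beside 18% of all genes. The medullary mean was 11.50 ± 0.24 in SA (n = 4), 11.92 ± 0.43 in SpD (n = 5), 11.44 ± 0.28 in Ent (n = 5) and 11.41 ± 0.19 in EAr (n = 5). Across states 5 of the 10 markers were called, beside 46.1% of all genes. Without K130, 3 of the 10 were called, beside 42.2%. The mean of the 8 proximal tubule markers was 14.05 ± 0.44 in IBA and 14.40 ± 0.17 in LAr. Of the 8, 1 was called (18% of all genes) and, without K130, 0 (16%). For hibernation 2 of the 10 medullary markers (median difference −0.26) and 2 of the 8 proximal tubule markers (−0.25) were called, beside 33.4% of all genes. Without K130 these counts were 2 and 4, beside 32.9%. With the medullary mean as a covariate, Slc5a3 was the only gene of the 8 called across states (q = 0.0238), when 39.4% of all genes passed. Then 0 of 8 passed between IBA and LAr (8.74% of all genes), with 1 at an unadjusted p under 0.05, and Slc14a2 had a difference of 1.33 (q = 0.272) and Slc5a3 of 0.94 (q = 0.0762). For hibernation 0 of 8 passed with the covariate (30.3% of all genes), again with 1 at an unadjusted p under 0.05. That gene was Akr1b1, which was higher in hibernation (0.31, SE 0.12, q = 0.0542). Both the markers and the covariate were chosen with earlier results known.

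Levels of several genes followed the medullary marker mean across the 28 kidneys. Pearson's r was 0.898 for Slc4a11 (rho 0.836), 0.839 for Slc14a1 (rho 0.819) and 0.809 for Slc14a2 (rho 0.746). Without the 2 animals farthest from the median marker mean, K84 and K104, r was 0.860, 0.754 and 0.721. The osmolyte carriers followed it less closely, with r of 0.661 for Slc5a3 and 0.650 for Slc6a12, and 0.510 and 0.527 without those animals. For Akr1b1 r was 0.437, and 0.531 without those animals, so its order against the carriers turned. Nfat5 (0.319) and Slc6a6 (−0.001) had the lowest r, with 0.178 and 0.0897 without those animals. These values are descriptions, since the animals share states, kits and a tissue makeup that moves both axes.

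**Figure D4:**
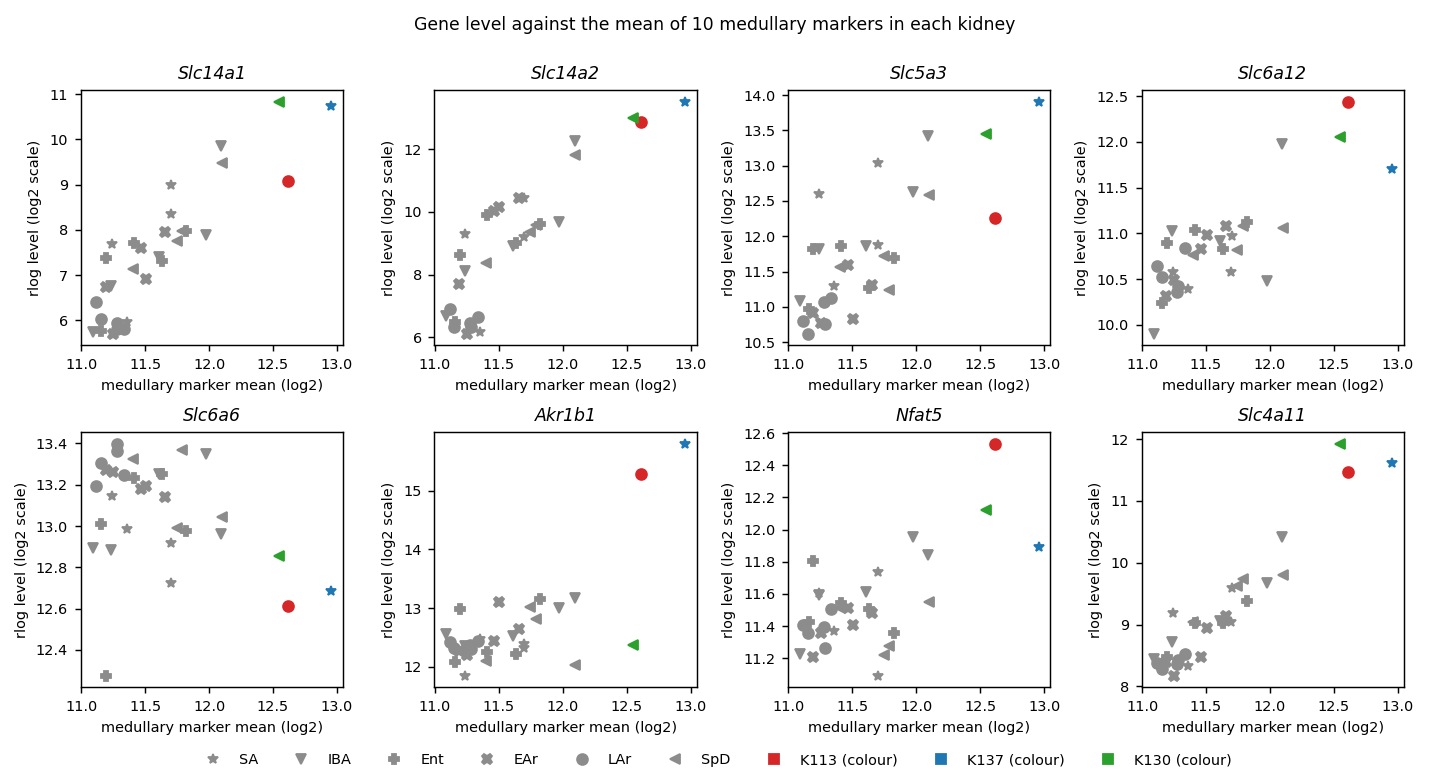
Each panel plots the rlog level of a gene (y axis) against the mean of 10 medullary markers (x axis, log2) in all 31 kidneys, with a symbol for each state and colours for K113, K137 and K130. Slc4a11 rises with the marker mean, and Akr1b1 is high in K113 and K137 but not in K130.

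The genes most like each of the 8 over the 29 animals, outside the 8 themselves, are given by their Pearson's r. Sult2b1 (0.969), Thbd (0.959) and Papss2 (0.953) were nearest to Slc14a1, and Sema6d (0.927), Rasal1 (0.926) and Ehf (0.923) to Slc14a2. Nearest to Slc5a3 were Atp8b1 (0.945), Scin (0.925) and Ugt8 (0.925), and to Slc4a11 Tinagl1 (0.964), Hapln3 (0.941) and Fam131c (0.939). Thbd encodes the endothelial receptor thrombomodulin and Papss2 makes the sulfate donor that Sult2b1 uses. Slc6a12 was most like Slco3a1 (0.890), TMEM215 (0.881) and Nyap1 (0.880), and Slc6a6 most like Pacs1 (0.894), Camsap3 (0.886) and Ppp1r26 (0.886). Nfat5 had Ccnt2 (0.896), Camsap2 (0.884) and Arhgap29 (0.881). Akr1b1 had no close match, with Il17rb at 0.701, Loxl4 at 0.630 and LOC101978141 at 0.597. In the 28 animals these 24 values ranged from 0.614 for LOC101978141 with Akr1b1 to 0.958 for Sult2b1 with Slc14a1.

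Other genes of osmolyte handling were read from fixed lists, beside the 46.1% of all genes called across states. Of 13 genes of osmolyte synthesis and breakdown, 6 were called across states, and 7 of 13 in the hibernating against homeothermic contrast (33.4% of all genes), 6 lower (16.8%) and 1 higher (16.6%). Aldh7a1, which oxidizes betaine aldehyde to betaine, was lower in hibernation (difference −0.72, SE 0.10, q = 6.3e-06), and so were Sord, which turns sorbitol to fructose (−0.31, SE 0.10, q = 0.0208), and Cdo1, a step towards taurine (−0.75, SE 0.18, q = 0.00246). Gpcpd1, which degrades glycerophosphocholine, was higher (0.36, SE 0.05, q = 2.23e-05). Csad, the enzyme that makes hypotaurine, was lower in IBA than in LAr (−0.49, SE 0.14, q = 0.0225). Several of these enzymes are made in the proximal tubule. Of its 8 markers, 5 had lower fitted values in hibernation, and 2 were called in 29 animals and 4 in the 28. The part of tissue makeup in the differences of these enzymes was not tested.

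Among 7 other osmolyte and choline carriers, 5 were called across states. Slc6a20, an imino acid carrier, was lower in hibernation (−1.29, SE 0.19, q = 2.71e-05), as were Slc5a11, a further myo-inositol carrier (−0.36, SE 0.09, q = 0.00275), and Slc38a2, a neutral amino acid carrier (−0.39, SE 0.13, q = 0.0263). In IBA against SA, Slc6a20 (−1.64, q = 0.00223) and Slc5a11 (−0.81, q = 0.000975) were also lower, but Slc38a2 was not (0.04, q = 0.935). Slc5a11 and the GABA and taurine carrier Slc6a13 were lower in IBA than in LAr (−0.49, q = 0.0268, and −0.58, q = 0.00243), the opposite sign to Slc5a3. Slc44a2, a choline carrier, passed only across states (q = 0.0259) among the 8 comparisons and that test.

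Of 8 hypertonicity genes, 6 were called across states, and 3 of 8 were lower in hibernation, when 16.8% of all genes were. The inducible chaperones Hspa1b (−0.71, SE 0.19, q = 0.0052) and Hspa1a (−0.59, SE 0.16, q = 0.00589) were lower in the pooled hibernating states. They share sequence, so their reads may be split between them. In IBA, itself a hibernating state, neither was called against SA (Hspa1b −0.05, q = 0.937, and Hspa1a −0.17, q = 0.702). Hspb1, a small chaperone, was higher in IBA than in LAr (0.81, SE 0.23, q = 0.0164), and Gadd45a, a growth arrest gene, was lower (−0.67, SE 0.18, q = 0.0128). Hspa4l, a chaperone also called Osp94, was lower in Ent than in IBA (−0.38, SE 0.09, q = 0.00834).

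Volume regulation genes numbered 5 of 8 called across states. The osmosensitive channel Trpv4 was lower in hibernation (−0.49, SE 0.08, q = 6.13e-05), as was Lrrc8c, a subunit of the volume-regulated anion channel (−0.30, SE 0.11, q = 0.0447). Against SA, IBA was lower for Trpv4 (−0.52, q = 0.0122) but not for Lrrc8c (0.12, q = 0.719). Its partners Lrrc8a (−0.44, q = 0.0163) and Lrrc8e (−0.37, q = 0.0173) were lower in Ent than in IBA, and Lrrc8d was higher in SA than in SpD (0.37, q = 0.0442). Of 5 genes of the vasopressin signal to urea transporters, 2 were called across states. The vasopressin receptor Avpr2 was lower in hibernation (−0.51, SE 0.15, q = 0.0103), and Prkaca, a catalytic subunit of protein kinase A, was higher (0.13, SE 0.05, q = 0.0344). In IBA against SA neither was called (Avpr2 −0.05, q = 0.919, and Prkaca 0.13, q = 0.281). In the 28 animals the counts across states were 7 of 13, 4 of 7, 6 of 8, 3 of 8 and 1 of 5 for the lists in the order given, when 42.2% of all genes passed.

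Sex was tested last. None of the 8 genes passed the limma test between males and females (lowest q = 0.514, Akr1b1, −0.33 in males, with 1 gene at an unadjusted p under 0.05). The main effect of experiment was not read, since the authors had corrected the values for batch. The fitted term for Slc14a2 was still 0.90 (experiment 2 minus 1, limma q = 0.882). The IBA and LAr difference of that gene moved with this term, as given above. The effect of state did not pass a test of its difference between the sexes for any of the 8. The lowest unadjusted p was 0.0366 (Akr1b1), the 1 gene under 0.05, when 3.11% of all genes were. Nor did SpD against IBA pass that of a difference between the experiments (lowest q = 0.191, Nfat5, with 2 genes at an unadjusted p under 0.05). Over the table, 236 of 12863 genes passed that test and 18.6% had an unadjusted p under 0.05, so SpD against IBA did depend on experiment for other genes. For Ent against IBA 0 genes of the table passed (8.86% at an unadjusted p under 0.05), and the lowest p of the 8 was 0.0836 (Slc6a6). For Slc14a2 the SpD and IBA means differed by 0.21 in experiment 1 and 2.95 in experiment 2 (unadjusted p = 0.0679, q = 0.306).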

How the data were processed

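Kidney RNA of 31 13-LGS was measured by RNA-Seq of polyadenylated RNA. Reads were trimmed by the authors (cutadapt), cleared of mitochondrial sequence (hisat2), quantified against HiC_Itri_2 transcripts (Salmon) and summed per gene (tximport). Genes below an rlog of 7 in more than 1 of 5 animals of every group were dropped, and the authors then corrected rlog values (DESeq2) for batch (limma). Tool versions were not given in the sources used here. The deposited values are thus batch-corrected rlog on the log2 scale, with no counts or depths, so errors are spreads over animals and fold changes of low genes are shrunken. K136 was not analysed here.

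For this report all 12863 genes were fitted in 29 animals, without K113 and K137, using limma 3.58.1 (R 4.3.3) with terms for state, experiment and sex, empirical Bayes, a trend of the variance with intensity and Benjamini-Hochberg adjusted p (q) within each comparison at 0.05. The 7 pairs of states, a pooled contrast of the hibernating against the homeothermic states, an F test across the 6 states and the interactions with sex and experiment were tested. The deposited values had already been corrected for batch, which the degrees of freedom do not count. All tests were 2-sided. Intervals are 95%. A call is a q under 0.05. The model was tested on simulated data with 200 changed genes. Plots were made in Python 3.11.15 (matplotlib 3.10.9).

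The genes, lists, markers and alternatives were chosen with earlier results of these data known. Genes named from a list were those called across states, at most 5 with the lowest p in each list, and the 3 nearest genes to each member were those with a symbol and the highest Pearson's r. Alternatives were all 31 animals, 28 animals without K130, a threshold of 0.001, no term for experiment, experiment 2 only, no trend, median centring, a mean level of at least 8, the medullary marker mean as a covariate, and each animal left out; leaving out K104 with K130, and the covariate in 28 animals, were added after the data were seen. The marker lists for endothelium, thick ascending limb, distal convoluted tubule, intercalated cells, podocytes, fibroblasts and macrophages were computed and are given with the other observations.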

Additional observations from a re-analysis of the deposited data

Results flagged for a closer look

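Within single states, some kidneys lay far from the rest for a gene, the gap to the nearest animal taking up more of the range of the state than expected at 95% by Dixon's test. Of 48 combinations of a gene and a state, 12 were of this kind. K113, K137 and K130, whose levels were used to choose the genes, made up 11 of the 12, so the count was set by the choice and is not read against chance. For those kidneys the rule only describes the size of the gap and is not a test. K113 in LAr was set apart for all 8 genes, with 9.09 for Slc14a1, 12.87 for Slc14a2, 12.26 for Slc5a3, 12.44 for Slc6a12, 15.29 for Akr1b1, 12.53 for Nfat5 and 11.47 for Slc4a11, each the highest of its state, and with 12.61 for Slc6a6, the lowest. The nearest LAr levels were 6.41, 6.91, 11.12, 10.84, 12.45, 11.51, 8.53 and 13.20 in the same order. K130 in SpD was set apart for Slc6a12 (12.05, next 11.08) and Slc4a11 (11.93, next 9.81), and K137 in SA for Akr1b1 (15.80, next 12.46). K8 in Ent, from experiment 1, was set apart at the low end for Slc6a6 (12.28, next 12.97), while its Slc14a2 level of 8.62 lay among the others. The genes were chosen with the levels of K113, K137 and K130 known, so K8 is the 1 kidney here outside that choice, and chance alone gives such a gap in about 1 in 20 groups.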

How the results depend on the processing

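Counts of the 8 genes called, 4 across states, 2 for IBA against LAr and 3 for hibernation, depended on the animals and terms used. In the order across states, IBA against LAr and hibernation, the counts were 1, 0 and 2 in all 31 animals, 1, 1 and 1 in the 28, 0, 0 and 0 at q under 0.001, 1, 0 and 0 with the medullary marker mean as a covariate, and 1, 0 and 0 with that covariate in the 28. Leaving out K104 with K130 gave 1 across states, 0 for IBA against LAr, with 1 at an unadjusted p under 0.05, and 3 for hibernation. IBA against LAr gave 1 with no term for experiment. Experiment 2 alone gave 1 there (7.49% of all genes), 5 for hibernation and 1 for SA against SpD (Slc4a11). When animals were left out singly, the counts ran from 1 (without K130) to 5 (without K8) across states, from 0 (without K104) to 6 (without K171) for IBA against LAr, from 0 (without K138) to 4 (without K140) for hibernation, from 0 to 1 for SA against SpD and from 0 to 1 for Ent against IBA (without K171). Leaving out K109, K111, K112, K116 or K84 gave 2 across states. The cause was not tested. A count with no share of all genes beside it here or above is not read as a result about the 8 genes. No called difference changed sign under these alternatives, and median centring or no trend changed none of the 72 calls of the 8 genes. At a mean level of at least 8, Slc14a1 is not in the fit. No paired analysis was possible because the replicate names are animals and no name occurs in more than 1 state. Depth is unknown, so a difference that missed the threshold cannot be called absent, and leaving out 2 or 3 kidneys after their values were seen makes the other groups tighter.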

Other observations

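Other cell type markers gave the makeup of the kidneys around these genes. Across states, 3 of 5 endothelial markers were called in 29 animals, 2 of 5 of the thick ascending limb, 1 of 3 of the distal convoluted tubule, 2 of 4 of intercalated cells, 1 of 4 of podocytes, 1 of 5 of fibroblasts and interstitium and 1 of 4 of macrophages, beside 46.1% of all genes. Podocyte markers were lower in IBA than in LAr for 3 of 4 (median difference of the list −0.86), beside 8.03% of all genes called lower. Their mean was 11.76 ± 0.62 in IBA (10.76 to 12.21, n = 5) and 12.39 ± 0.16 in LAr (12.23 to 12.61, n = 5). The 3 kidneys with high medullary markers differed from each other in the thick ascending limb. Its marker mean was 13.60 in K130, the highest of SpD, 12.86 in K137, within SA, and 12.03 in K113, below the other 5 LAr animals, which held 12.16 to 12.35. Slc12a1, the salt carrier of that segment, was 1.44 above the mean of the other SpD animals in K130 and −0.27 from the mean of the other LAr animals in K113. Pecam1, an endothelial marker, was above that mean by 1.05 in K113, 1.26 in K137 and 1.18 in K130.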
